A study of Mus musculus with 12 samples.

Results

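Mouse chromosomes are telocentric. The centromere lies at the start of each chromosome, and the first stretch of each assembled chromosome is therefore the sequence next to the centromere. Contacts between these centromere-proximal ends of different chromosomes were counted. An interaction belonged to the set when both of its anchors (the restriction fragments, or runs of them, that a read pair joins) lay on different autosomes and ended at or before position 13 Mb of mm10 (GRCm38), which gives windows of about 10 Mb because sequence starts near 3 Mb. The 19 autosomes give 171 pairs of proximal ends out of 29272 inter-chromosomal pairs of 10 Mb windows. They hold 19260 of 2072815 inter-chromosomal autosomal read pairs in Hi-C of ESC and 16426 of 2431059 in Hi-C of NCC.

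The study measured chromatin contacts in mouse embryonic stem cells (ESC, strain E14Tg2A, kept with leukemia inhibitory factor) and in neuronal committed cells (NCC), which are the same E14Tg2A cells after retinoic acid in medium without that factor. Retinoic acid was given at 1 uM for 48 h. Hi-C records contacts between any fragments that are close in the nucleus. HiChIP keeps the contacts of chromatin bound by a protein, here FGFR1, a fibroblast growth factor receptor that also occurs in the nucleus, or CTCF, which holds chromatin loops at their anchors. Each of the 6 combinations has 2 biological replicates that were merged before deposit, so each is 1 pooled library, and the spread between replicates is unknown. Both cell types come from 1 cell line, and contact data hold no marker expression by which the labelled cell types could be checked.

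The centromeres of mouse chromosomes are surrounded by long arrays of satellite repeats that are missing from the assembly. In interphase nuclei these arrays from several chromosomes gather in dense bodies called chromocenters, which are rearranged when stem cells differentiate. Several mouse chromosomes also carry ribosomal RNA gene arrays next to the centromere, and these arrays gather in nucleoli.

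The sequences below show close matches that proximal sequence has on another chromosome, because read pairs between near-identical copies can be hard to place. They do not show how much of a bin is shared. Of the 6 proximal 10 kb bins with the most ends of proximal-proximal read pairs in Hi-C, 4 are shown by the longest run that they share with the joined proximal anchor holding most of their 31-base words. The fifth sequence is from a chromosome 6 anchor that was joined to a ribosomal RNA gene, and was chosen after its values were seen. All are on the plus strand of GRCm38, and capitals mark the shared run, with 15 flanking bases in lower case on each side. The Sfi1 run, at chr11:3188676-3188747, lies in introns of Sfi1, a centrosome gene, and of the overlapping gene Drg1, is repeat-masked over 100% of its 42 bases, and is found in an anchor at chr7:3380212-3398547 over exons of Cacng8. The AI838599 run, at chr4:3250113-3250365, lies in an intron of that long noncoding RNA gene and shares 223 bases with an anchor at chr13:3003146-3006506. The chromosome 6 run at chr6:3182152-3182313 shares 132 bases, on the opposite strand, with chr9:3198086-3202755. The chromosome 4 run at chr4:3239821-3239922 shares 72 bases with chr6:3194838-3196459. The last run, at chr6:3200977-3201158 with no annotated gene, shares 152 bases with an anchor at chr17:39842463-39849607 that covers an annotated ribosomal RNA gene.
Sfi1 run: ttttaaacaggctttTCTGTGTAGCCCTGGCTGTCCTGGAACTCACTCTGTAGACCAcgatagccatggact
AI838599 run: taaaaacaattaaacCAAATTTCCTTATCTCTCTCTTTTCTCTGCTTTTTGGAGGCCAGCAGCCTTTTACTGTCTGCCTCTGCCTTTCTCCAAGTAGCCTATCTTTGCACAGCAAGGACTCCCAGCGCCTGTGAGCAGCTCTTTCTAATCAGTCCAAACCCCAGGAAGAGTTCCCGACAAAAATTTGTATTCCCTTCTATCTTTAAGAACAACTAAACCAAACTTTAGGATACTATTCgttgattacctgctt
Chromosome 6 run: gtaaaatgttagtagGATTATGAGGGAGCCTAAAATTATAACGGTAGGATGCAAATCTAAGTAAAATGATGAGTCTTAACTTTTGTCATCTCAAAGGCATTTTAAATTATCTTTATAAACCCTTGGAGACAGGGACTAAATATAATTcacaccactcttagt
Chromosome 4 run: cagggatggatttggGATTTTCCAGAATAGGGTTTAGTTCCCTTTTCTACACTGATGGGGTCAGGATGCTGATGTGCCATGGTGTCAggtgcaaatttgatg
Ribosomal RNA run on chromosome 6: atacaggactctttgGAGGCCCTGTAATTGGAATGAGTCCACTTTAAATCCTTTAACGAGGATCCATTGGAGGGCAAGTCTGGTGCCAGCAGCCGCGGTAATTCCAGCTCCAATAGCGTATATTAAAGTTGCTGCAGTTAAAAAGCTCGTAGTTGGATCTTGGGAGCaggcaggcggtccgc

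The libraries differ in depth. The autosomal read pairs of Hi-C number 20643821 for ESC and 21142644 for NCC, against 1049415 to 3177422 in the 4 HiChIP libraries. Inter-chromosomal pairs make up 9.85% to 12.4% of them. HiChIP is too shallow for single pairs of proximal ends, with a median of 5 to 17 read pairs each against 75 and 100 in Hi-C, and was therefore summed. The expected number of each window pair is what random pairing of inter-chromosomal ends on different autosomes gives from the total of each window. An excess between proximal ends also raises these totals, so that observed over expected understates it. Intervals are exact 95% intervals and cover counting error only. A Poisson p-value sets a pooled library against its own expected number, and a binomial p-value compares the pooled libraries of ESC and NCC. Neither is a test of the conditions.

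Proximal ends were joined to proximal ends of other chromosomes more often than random pairing gives, in all 6 libraries. In Hi-C of ESC the 19260 read pairs stood against 10971 expected, which is 1.76 times (1.73 to 1.78). In Hi-C of NCC the 16426 read pairs were 1.48 times the expected number (1.46 to 1.51). Both are far above 1 beyond counting error, with exact Poisson p-values too small to be computed. FGFR1 HiChIP gave 2969 read pairs and 1.72 times (1.66 to 1.78) in ESC, and 3050 read pairs and 1.41 times (1.36 to 1.46) in NCC, with exact Poisson p = 3.07e-161 and p = 9.15e-72. CTCF HiChIP gave 1161 read pairs and 1.58 times (1.49 to 1.68) in ESC, and 1016 read pairs and 1.44 times (1.36 to 1.54) in NCC, with exact Poisson p = 1.04e-47 and p = 2.92e-28. In each assay the NCC library was below the ESC library. Of all inter-chromosomal ends in a proximal window, 12.7% in Hi-C of ESC and 9.91% in Hi-C of NCC were joined to another proximal window.

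The opposite chromosome end behaved in the opposite way. Read pairs between a proximal end and the last 10 Mb of another chromosome, the telomere-distal end, were 0.655 times the expected number in Hi-C of ESC (0.647 to 0.664) and 0.761 times in Hi-C of NCC (0.753 to 0.770). The same ratio was 0.656 and 0.752 in FGFR1 HiChIP, and 0.692 and 0.763 in CTCF HiChIP, for ESC and NCC. All 6 values lie below 1 beyond counting error, with exact Poisson p = 4.60e-28 for the weakest, CTCF HiChIP of NCC. Distal ends with each other were at 1.33 and 1.22 in Hi-C, lower than proximal ends with each other in the same library, with intervals that do not overlap. Proximal ends with the stretch between both ends stayed within 0.975 and 0.995 in the 6 libraries.

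**Figure D1:**
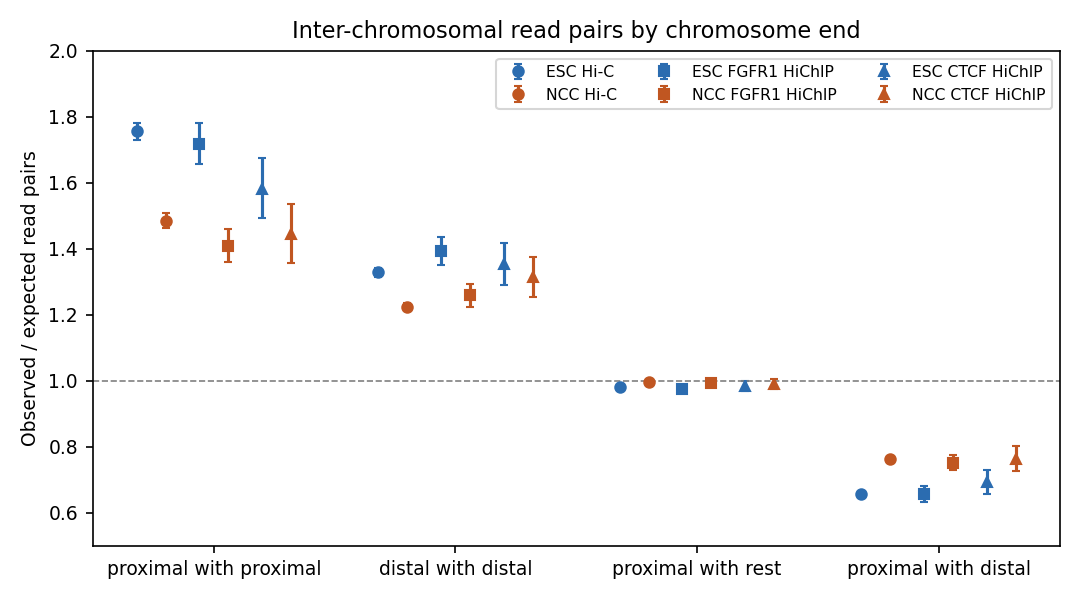
Observed over expected inter-chromosomal read pairs (y axis, ratio) for proximal with proximal, distal with distal, proximal with the rest and proximal with distal ends (x axis), per pooled library, with exact 95% counting intervals as bars. Proximal with proximal is highest at 1.41 to 1.76, and proximal with distal is lowest at 0.655 to 0.763.

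The ratio changed gradually along the partner chromosome. In Hi-C of ESC a proximal window was at 1.76 with the first 10 Mb window of a partner, at 1.60 with the second and at 1.32 with the third. It reached 0.988 with the sixth window, which spans 53 to 63 Mb, and 0.600 with the last window of the longest chromosome. In Hi-C of NCC the same series ran from 1.48, 1.38 and 1.20 to 1.02 and 0.714. The series did not fall at every step. It rose from 1.20 to 1.23 from the window at 23 Mb to the window at 33 Mb in NCC, and windows from 123 Mb on come from 11 or fewer chromosomes. The NCC curve lies below the ESC curve over the first 4 windows and above it from the sixth window on. Windows at the same distance from the start, other than the first, were also joined more than expected, by 1.04 to 1.49 times in ESC and 1.01 to 1.33 times in NCC over 11 such windows, and none of them reached the value of the first.

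**Figure D2:**
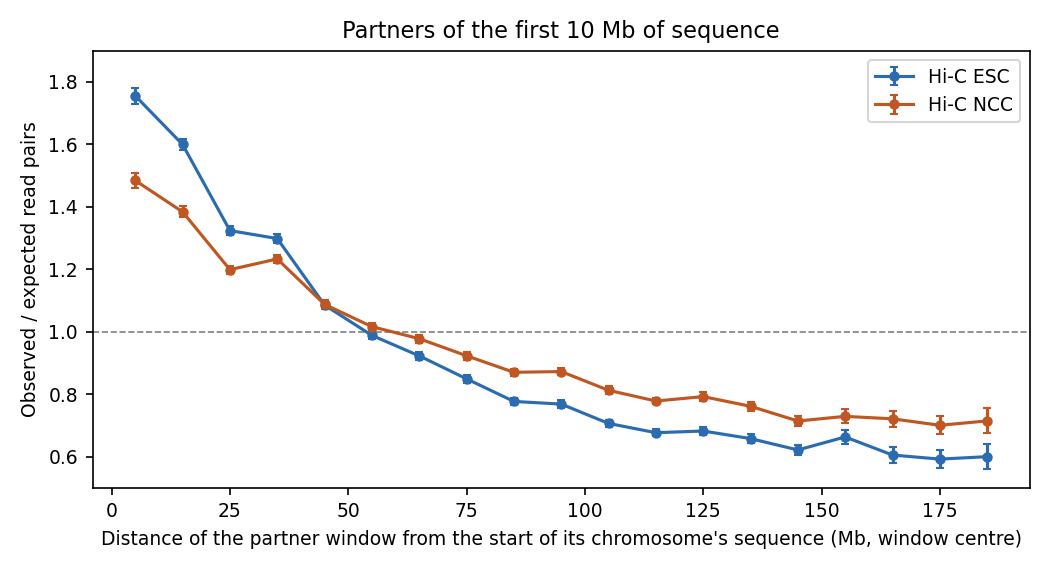
Observed over expected Hi-C read pairs (y axis, ratio) between the first 10 Mb of sequence of 1 chromosome and each 10 Mb window of other chromosomes, by distance of that window from the start of its sequence (x axis, Mb), with exact 95% counting intervals. Both curves fall from the proximal end, ESC from 1.76 to 0.600 and NCC from 1.48 to 0.714, and meet at the fifth window.

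Within the proximal window, the first 1 Mb of sequence stood apart. Ends between 3 and 4 Mb were joined to other proximal windows 2.19 times the expected number in Hi-C of ESC (2.14 to 2.25), whereas the other 9 steps of 1 Mb lay between 1.61 and 1.79. In Hi-C of NCC the first step was at 1.88 (1.83 to 1.94) and the others lay between 1.35 and 1.48. FGFR1 HiChIP had 2.22 and 1.78 in the first step, and CTCF HiChIP 2.07 and 1.72, for ESC and NCC. The first step was thus the highest in each library. This lay mainly in ends between 3 and 4 Mb joined to each other, at 4.96 in Hi-C of ESC and 4.26 in NCC. Over the 6 libraries this value ran from 2.98 to 5.25. Joined to the 1 Mb bins from 5 Mb on, the same ends were at 1.69 to 1.81 in Hi-C of ESC and 1.32 to 1.67 in NCC. The read pairs within 3 to 4 Mb are also part of the next values. Read pairs with both ends within 3 to 5 Mb reached 2.73 in Hi-C of ESC (2.62 to 2.86) and 2.28 in Hi-C of NCC (2.17 to 2.40). Both ends within 11 to 13 Mb gave 1.68 and 1.38, still above 1.

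The excess was spread over the chromosome pairs. In Hi-C of ESC, 168 of the 171 pairs of proximal ends were above 1, with a median of 1.96 and a range from 0.901 to 3.57. In Hi-C of NCC, 166 pairs were above 1, with a median of 1.56 and a range from 0.863 to 4.002. The median over all pairs of 10 Mb windows was 0.979 in ESC and 0.986 in NCC. At least 1.5 times the expected number was found in 134 pairs (78.4%) in ESC, against 6.96% of all 28307 window pairs tested, and in 96 pairs (56.1%) in NCC, against 3.72% of 28343. At most 1/1.5 of the expected number was found in 0 pairs in either cell type, against 11.3% of all window pairs in ESC and 4.85% in NCC. By the exact Poisson test with Benjamini-Hochberg adjustment over all window pairs, 151 pairs (88.3%) were higher than expected in ESC, against 11.1% of all window pairs, and 112 (65.5%) in NCC, against 6%. In 169 pairs in ESC and 170 in NCC, proximal with proximal was above proximal with distal of the same chromosomes. The values spread more than counting error gives, with an SD over pairs of 0.493 in ESC and 0.383 in NCC against 0.208 and 0.196 from counting alone.

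**Figure D3:**
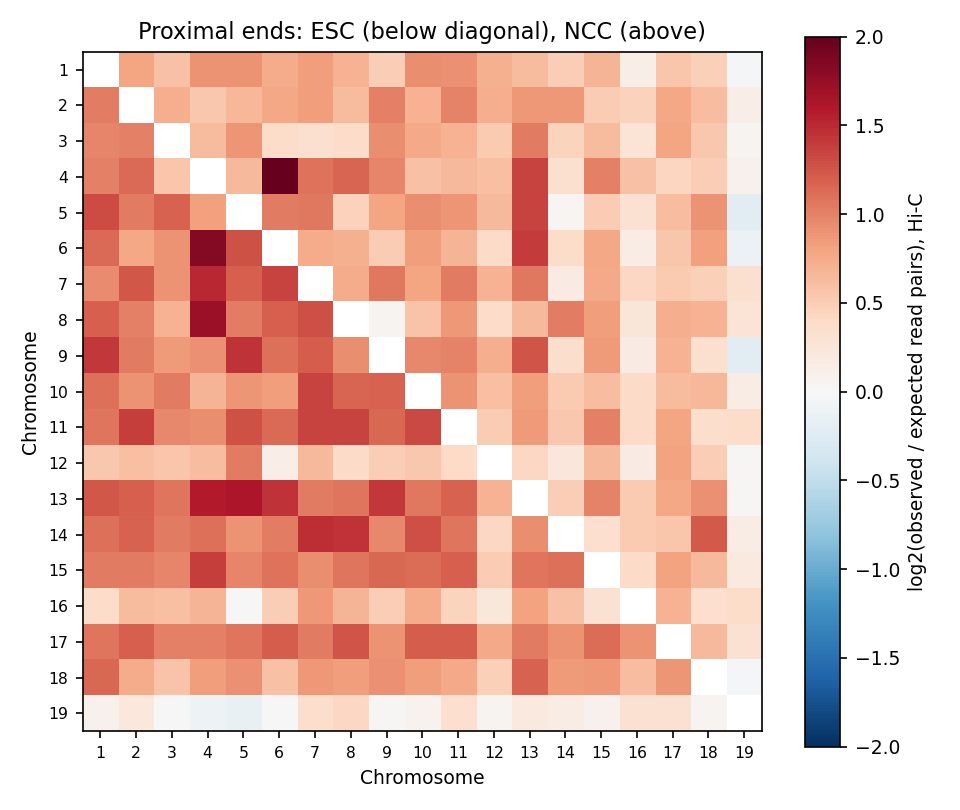
log2 of observed over expected Hi-C read pairs (colour, red above and blue below 0) between the proximal ends of each pair of autosomes (both axes, chromosome number), with ESC below the diagonal and NCC above it. Nearly all squares are red, chromosomes 4 and 6 give the darkest square on both sides of the diagonal (3.57 and 4.002 times on the linear scale), and the row and column of chromosome 19 are pale.

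Each of the leading pairs held chromosome 4 or chromosome 13. The proximal ends of chromosomes 4 and 6 had 131 read pairs against 36.7 expected in Hi-C of ESC, or 3.57 times (2.99 to 4.24, adjusted exact Poisson p = 2.58e-30), and 129 against 32.2 in NCC, or 4.002 times (3.34 to 4.76, adjusted exact p = 3.33e-34). In ESC there followed chromosomes 4 and 8 with 198 read pairs (3.28), 5 and 13 with 77 (3.08), 4 and 13 with 132 (2.99) and 4 and 7 with 97 (2.86). In NCC there followed chromosomes 6 and 13 with 81 read pairs (2.63), 4 and 13 with 103 (2.56), 5 and 13 with 62 (2.56) and 9 and 13 with 55 (2.40). These counts leave wide intervals, and those of the 5 leading pairs overlap their neighbours in the order. The exception is 4 and 6 in NCC, whose lower bound of 3.34 is above the upper bounds of the other 4, the highest of which is 3.28 for chromosomes 5 and 13.

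Part of the leading values came from the first 1 Mb. Without it, chromosomes 4 and 6 were at 2.10 (1.56 to 2.76) in ESC and at 1.42 (0.979 to 1.997) in NCC. Chromosomes 4 and 8 then were at 1.86 (1.48 to 2.298) in ESC and at 1.09 (0.803 to 1.44) in NCC. The pair of chromosomes 5 and 13, with 0 read pairs in the 6 busiest bins, kept 3.44 in ESC and 2.21 in NCC. Of the read pairs of chromosomes 4 and 6, 37 in ESC and 42 in NCC had an end in the 6 busiest bins. Without these read pairs the ratio was 2.56 and 2.70. Here the expected number was left unchanged and still holds the ends of these bins, so both values are low estimates.

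The lowest pairs mostly held chromosome 19. In Hi-C of ESC these were chromosomes 5 and 19 (73 read pairs, 0.901), 4 and 19 (134, 0.936), 6 and 19 (100, 0.992), 5 and 16 (48, 1.00) and 3 and 19 (110, 1.01). In NCC they were 9 and 19 (67, 0.863), 5 and 19 (71, 0.865), 6 and 19 (96, 0.921), 1 and 19 (98, 0.972) and 18 and 19 (161, 0.986). None of these intervals excludes 1, so in this setting and at this depth none of the pairs was distinguishable from random pairing. Without the 1% strongest anchors, chromosomes 6 and 19 were at 1.31 (1.04 to 1.64) in ESC. The intervals of the other pairs named here still held 1 in that setting.

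The proximal contacts of NCC were below those of ESC. The NCC over ESC ratio of observed over expected was 0.846 in Hi-C (0.828 to 0.863, exact binomial p = 2.54e-56), 0.820 in FGFR1 HiChIP (0.779 to 0.863, exact binomial p = 1.66e-14) and 0.913 in CTCF HiChIP (0.838 to 0.994, exact binomial p = 0.0352). Contacts of proximal with distal ends moved the other way, with NCC over ESC ratios of 1.16 (1.14 to 1.18), 1.15 (1.09 to 1.20) and 1.10 (1.02 to 1.19) and exact binomial p = 3.41e-66, p = 7.79e-09 and p = 0.00919. The last of these lost its threshold with a window up to 8 Mb, at 1.06 (exact binomial p = 0.254), and without chromosome 5, at 1.07 (exact binomial p = 0.0795). Distal ends with each other were at 0.921 (0.909 to 0.934) in Hi-C, and this interval lies above that of proximal ends. Distal ends also had the smaller excess in Hi-C of ESC. Each of these classes of Hi-C contacts lay nearer to random pairing in NCC than in ESC. Proximal with proximal went from 1.76 to 1.48, distal with distal from 1.33 to 1.22 and proximal with distal from 0.655 to 0.761. On the scale of observed over expected, the shift was thus not particular to proximal ends. As a share of inter-chromosomal Hi-C read pairs, distal-distal was at 0.965 and proximal-proximal at 0.727. As a share of all autosomal read pairs, distal-distal was higher in NCC in Hi-C, at 1.10 (1.09 to 1.12). Proximal-proximal read pairs were on that scale at 0.833 in Hi-C, 0.855 in FGFR1 HiChIP and 1.01 (0.927 to 1.10) in CTCF HiChIP. The 2 kinds of ends thus moved in opposite directions there in Hi-C, and the lower proximal value in NCC did not hold for CTCF HiChIP. The CTCF result also lost its threshold without any of chromosomes 4, 5, 6, 7, 8, 11, 15 or 18, with ratios up to 0.940. The share of inter-chromosomal read pairs itself was higher in NCC in each assay, at 11.5% against 10.0% in Hi-C. Its part in the ratios was not tested, neither for observed over expected nor on the scale of all read pairs.

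In Hi-C the lower value held within parts of the window. With both ends within 3 to 5 Mb the Hi-C ratio was 0.834 (0.779 to 0.891, exact binomial p = 8.11e-08), and with both within 8 to 13 Mb it was 0.822 (0.785 to 0.861, exact binomial p = 4.60e-17). FGFR1 HiChIP gave 0.808 (0.680 to 0.960) and 0.779 (0.698 to 0.868). CTCF HiChIP gave 0.995 (0.743 to 1.33) within 3 to 5 Mb, where no difference was detectable at its 106 and 90 read pairs, and 0.821 (0.681 to 0.989) within 8 to 13 Mb.

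By chromosome pair, 144 of 171 pairs were lower in NCC than in ESC in Hi-C, with a median ratio of 0.830, while the median over all window pairs was 1.01 and 48.2% of them were lower. A ratio of at most 1/1.5 was found in 20 pairs (11.7%) against 3.52% of all 28190 window pairs, and of at least 1.5 in 0 pairs against 5.03%. With Benjamini-Hochberg adjustment over all window pairs, the exact binomial test called 0 pairs lower, against 0.0568%, and 0 pairs higher, against 0.039%. At an unadjusted p under 0.05 it gave 40 pairs lower (23.4%), against 3.55% of all window pairs, and 0 higher, against 4.21%. No single pair passed the adjusted binomial test, while the number of pairs below 1 and their sum were shifted. A paired t-test over the 1 Mb bin pairs within each pair of windows, which are not replicates, called 103 pairs lower against 6% of all window pairs, and 14 after Benjamini-Hochberg adjustment against 0.145%. It compared read pairs scaled to the inter-chromosomal totals, and not observed over expected as the calls above do. On that scale the summed proximal-proximal ratio was 0.727, against 0.846 for observed over expected, so its counts are of another measure.

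The lowest ratios were those of chromosomes 7 and 14 (38 read pairs in ESC and 16 in NCC, 0.403, 0.210 to 0.740), 1 and 9 (76 and 25, 0.527), 8 and 9 (79 and 35, 0.542), 5 and 14 (22 and 12, 0.556) and 4 and 14 (45 and 24, 0.579). Chromosome 14 is in 3 of these 5. The highest were chromosomes 14 and 18 (41 and 54, 1.29, 0.847 to 1.99), 5 and 16 (48 and 60, 1.24), 6 and 12 (52 and 59, 1.18), 9 and 12 (65 and 56, 1.17) and 6 and 18 (60 and 68, 1.17). All of these 10 pairs have adjusted exact binomial p-values of 0.274 or more. Over the 171 pairs, which share chromosomes and windows, the ESC and NCC values had a Pearson r of 0.730 and a Spearman rho of 0.674.

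**Figure D4:**
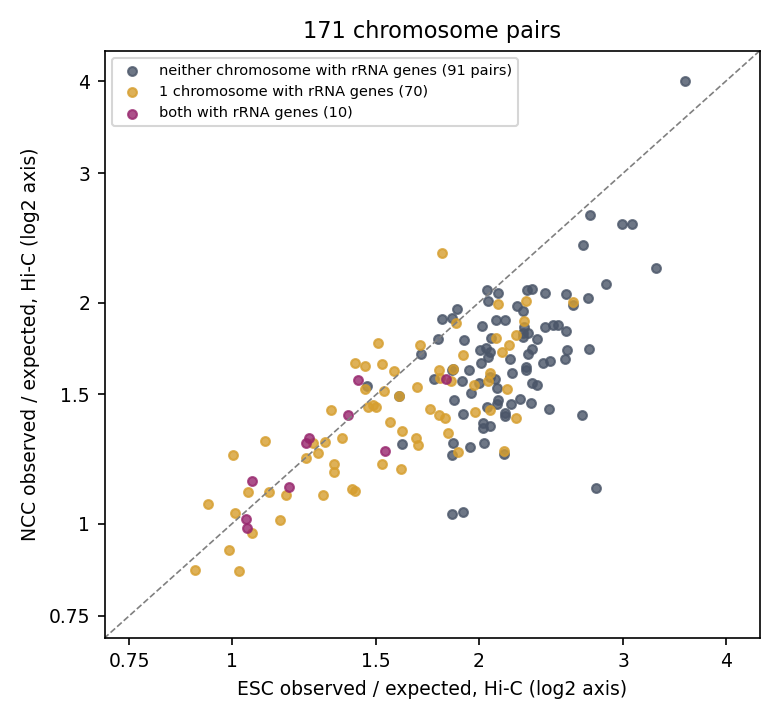
Observed over expected Hi-C read pairs between proximal ends in ESC (x axis, ratio on a log2 axis) and NCC (y axis, ratio on a log2 axis), 1 point per chromosome pair, coloured by how many of its chromosomes are on the list of ribosomal RNA gene carriers, with the line of equality dashed. 144 of 171 points lie below the line, and the 10 pairs with listed ribosomal RNA chromosomes on both sides reach up to 1.83 in ESC and 1.57 in NCC.

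Summed over all partners, each of the 19 proximal ends was above 1 in Hi-C. In ESC the highest were chromosome 7 at 2.07 (1.96 to 2.18), chromosome 13 at 2.06 (1.97 to 2.16) and chromosome 8 at 2.02 (1.94 to 2.10), whose intervals overlap. The lowest were chromosome 19 at 1.12 (1.08 to 1.17), chromosome 12 at 1.39 (1.32 to 1.45) and chromosome 16 at 1.46 (1.40 to 1.52). Of these 3, chromosome 19 lies below the others by more than counting error. In NCC the highest were chromosome 13 at 1.72 (1.64 to 1.81), chromosome 4 at 1.67 (1.59 to 1.75) and chromosome 11 at 1.64 (1.58 to 1.70), and the lowest chromosome 19 at 1.12 (1.08 to 1.16), chromosome 16 at 1.31 (1.25 to 1.36) and chromosome 12 at 1.40 (1.34 to 1.47). Chromosome 19 was the lowest in each of the 6 libraries, from 0.961 in CTCF HiChIP of ESC to 1.12 in both FGFR1 HiChIP and Hi-C of ESC. With distal ends, the proximal end of each chromosome was below 1 in Hi-C, from 0.547 (chromosome 6) to 0.880 (chromosome 19) in ESC and from 0.613 (chromosome 6) to 0.923 (chromosome 19) in NCC.

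The fall in NCC was shared by 17 of the 19 chromosomes. Their Hi-C ratios of NCC over ESC ran from 0.749 for chromosome 14 (0.675 to 0.831) and 0.755 for chromosome 8 (0.712 to 0.801) to 0.895 for chromosome 16 (0.845 to 0.948), each with an adjusted exact binomial p of 0.000219 or less over the 19 chromosomes. Chromosome 12 was at 1.01 (0.947 to 1.08, adjusted exact p = 0.794) and chromosome 19 at 0.996 (0.947 to 1.05, adjusted exact p = 0.874). In FGFR1 HiChIP 19 of 19 chromosomes were lower and 12 passed the adjusted test. In CTCF HiChIP 16 of 19 were lower, 0 passed the adjusted exact binomial test and 2 were lower at an unadjusted p under 0.05. Each chromosome pair enters the sums of both of its chromosomes, so these 19 values are not independent.

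**Figure D5:**
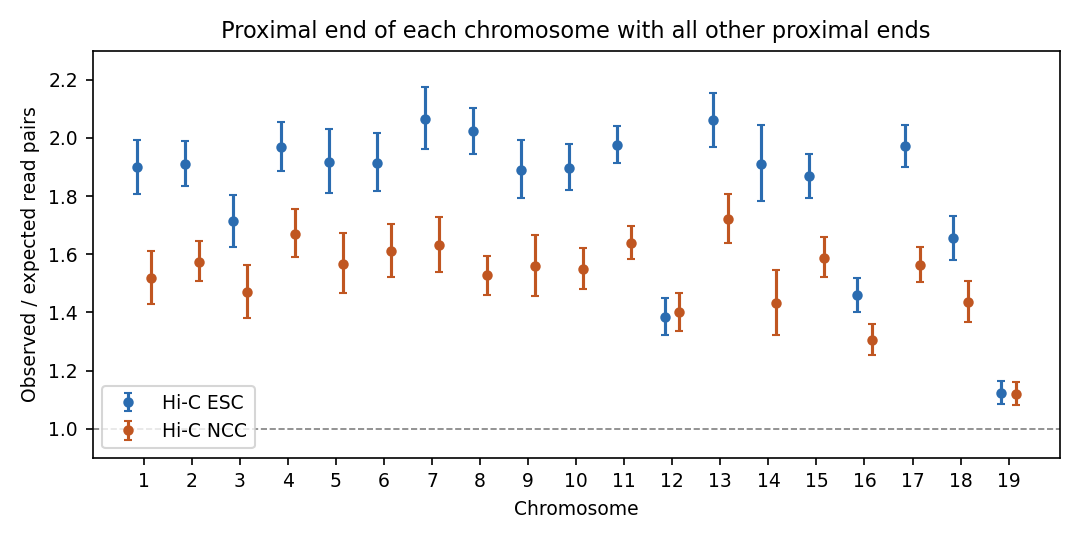
Observed over expected Hi-C read pairs (y axis, ratio) of the proximal end of each chromosome (x axis) with all other proximal ends, in ESC and NCC, with exact 95% counting intervals. Points for 17 chromosomes are lower in NCC beyond counting error, while chromosomes 12 and 19 have about the same value in both, at 1.39 and 1.40 and at 1.12 and 1.12.

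Chromosomes 12, 15, 16, 18 and 19 were taken, from general knowledge, as carriers of ribosomal RNA genes near the centromere. The carriers differ between mouse strains, and the list was not checked for E14Tg2A, so the groups below are groups by this list. The listed chromosomes are also the shortest autosomes apart from chromosome 17, so the list is tied to chromosome length. Chromosome 17, which is short and not listed, was at 1.97 in Hi-C of ESC and 1.56 in NCC. The part of length in the grouping was not tested. The more of them a pair held, the lower its proximal contacts were. In Hi-C of ESC the 91 pairs with none of these chromosomes summed to 2.22 (2.18 to 2.27), the 70 pairs with 1 of them to 1.52 (1.49 to 1.55) and the 10 pairs with both to 1.23 (1.17 to 1.29). At least 1.5 times was found in 90 of 91, 42 of 70 and 2 of 10 pairs. In NCC the sums were 1.73 (1.69 to 1.77), 1.37 (1.34 to 1.40) and 1.22 (1.16 to 1.28), with medians of 1.68, 1.42 and 1.27 against 1.56 over all pairs. FGFR1 HiChIP had the same order, 2.07, 1.501 and 1.24 in ESC and 1.57, 1.32 and 1.04 in NCC. CTCF HiChIP had it in ESC (1.94, 1.36 and 1.13) but not in NCC (1.70, 1.22 and 1.38 with only 87 read pairs in the last). Chromosome 19 carries much of this. Without it the Hi-C sums were 2.22, 1.73 and 1.41 in ESC and 1.74, 1.52 and 1.35 in NCC, still in the same order, and chromosome 15, also in the list, was at 1.87 in ESC, near the median of 1.91 over the 19 chromosomes. The distal ends of the same chromosomes were at 1.40, 1.26 and 1.20 with each other in ESC.

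The difference between cell types followed the same grouping in Hi-C. The NCC over ESC ratio was 0.778 (0.755 to 0.803) for pairs with none of the 5 chromosomes, 0.901 (0.873 to 0.929) for pairs with 1 of them and 0.989 (0.922 to 1.06) for pairs with both. Of the pairs, 84 of 91, 55 of 70 and 5 of 10 were lower in NCC. The interval of pairs with 1 of them overlaps that of pairs with both, and not that of pairs with none. In FGFR1 HiChIP the ratios were 0.761, 0.883 and 0.839, and in CTCF HiChIP 0.877, 0.893 and 1.22 (0.893 to 1.68).

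Base composition and gene content of the proximal windows differ between chromosomes. All proximal windows together have 41.5% GC and 7.85 protein-coding genes per Mb, against 41.9% and 8.68 over the autosomes, and 38.2% of their bases are repeat-masked against 33.5%. The proximal window of chromosome 19, the lowest of the 19, has the most GC (45.3%) and the most protein-coding genes (331, or 33.5 per Mb). Chromosome 7, the highest in ESC, follows in genes with 190. Across the 19 chromosomes the ESC value had a Pearson r of -0.453 with GC and -0.473 with the number of genes, but a Spearman rho of -0.118 and 0.100. With chromosome length these were 0.527 and 0.344, and with the repeat-masked share 0.169 and 0.0421. In NCC the Pearson r was -0.537 with GC, -0.574 with genes and 0.519 with length. These values are a description over windows of the same libraries. With expected numbers corrected for GC classes, proximal ends were at 1.73 in Hi-C of ESC and 1.47 in NCC, and with distal ends at 0.672 and 0.775.

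Single loci carried little of the total. Hi-C ends of proximal-proximal read pairs fell in 13316 bins of 10 kb with a median of 4 ends, and the 6 highest bins held 2.11% of the ends. All 6 lie within the first 1 Mb of sequence of chromosomes 4, 6 and 11. The highest, chr11:3180001-3190000 over exons of Sfi1 and an intron of Drg1, had 272 ends in ESC and 283 in NCC, and its neighbour at 3190001 to 3200000 had 205 and 199. Sfi1 encodes a centrosome protein and Drg1 a GTP-binding protein. The bins at chr4:3250001-3260000, over exons of AI838599, had 107 and 85 ends, at chr6:3180001-3190000, over the pseudogene Gm42642, 84 and 73, at chr4:3230001-3240000, with no gene, 46 and 71, and at chr4:3240001-3250000, over exons of AI838599, 66 and 18. Relative to their own inter-chromosomal totals these bins were at 3.05 and 2.60 for Sfi1 in ESC and NCC, and at 7.72 and 7.15, 8.41 and 9.57, 7.44 and 7.14, and 8.86 and 7.40 for the 4 bins on chromosomes 4 and 6, in the order given. The bins were chosen for their number of proximal-proximal ends, and a bin with few inter-chromosomal ends could enter only with a high ratio, so nothing is read from the order of these ratios. The Sfi1 bin had 1235 inter-chromosomal ends in ESC, and the 4 bins on chromosomes 4 and 6 had 83 to 186. Of their proximal-proximal read pairs, 19.3% and 33.9% (both Sfi1 bins) and 3.18% to 22.6% (chromosomes 4 and 6) joined anchors that share a 31-base word, against 17.01% and 18.32% of the proximal-proximal pairs with a score of 1 that were examined in ESC and NCC.

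Nearly all proximal-proximal interactions were seen once. In Hi-C 99.5% of interactions in both cell types had a score of 1, and repeated ones held 1.36% of read pairs in ESC and 1.38% in NCC. A score of 4 or more was reached by 11 pairs of anchors in ESC and 14 in NCC, of which 4 and 7 share a 31-base word. The highest score in ESC, 20, joined chr6:3200740-3202193, the anchor of the ribosomal RNA run printed above, to chr8:3753549-3755871, with which it shares no such word. Both anchors, and one on chromosome 10 and one on chromosome 16, were themselves joined to the ribosomal RNA anchor of chromosome 17, with scores of 1461 for chromosome 6, 338 for chromosome 8, 261 for chromosome 10 and 239 for chromosome 16 in ESC. In NCC these scores were 939, 312, 176 and 242. In ESC the chromosome 6 anchor shares 37.9% of its 31-base words with the ribosomal RNA anchor, the chromosome 8 anchor 0.572%, and those of chromosomes 10 and 16 share 0%. The part of shared sequence in these scores was not tested. With each interaction counted once, so that repeated pairs lose their weight, the ratio of observed to expected stayed above 1 in all 6 libraries. Repeated pairs hold so few of the read pairs that this count could change the ratio only a little, so nothing is concluded from it.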

How the data were processed

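Hi-C and HiChIP interactions were analysed in 6 pooled libraries, each of 2 merged biological replicates. Per the labels and the study's methods, the authors aligned reads to mm10 with HiC-Pro and called anchors and interactions with hichipper, separately in each library. The deposited score of an interaction is a whole-number count of read pairs, and totals differ between libraries. The methods state that numbers of valid pairs were equalised in some way between ESC and NCC for comparisons. How this was done, and whether it preceded the deposited files, is not given in the sources used here. Values were therefore set against each library's own totals, with no further scaling. All anchor ends lay at GATC sites of GRCm38.

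Read pairs were summed by chromosome window, with 10 Mb windows from 3 Mb, proximal ends up to 13 Mb and distal ends over the last 10 Mb. Expected counts came from the windows' inter-chromosomal totals. Exact Poisson tests were used within a library and exact binomial tests between libraries, with Benjamini-Hochberg adjustment over all window pairs with an expected count of at least 10. A 1.5-fold difference was used for calls. Intervals are exact 95% intervals, and PCR reads without molecular identifiers are not independent molecules. The named pairs were the 5 highest and 5 lowest of the 171 pairs by value in each cell type and by ratio. The named chromosomes were the 3 highest and 3 lowest, and the named loci the 6 bins of 10 kb with the most proximal-proximal ends in Hi-C. Gene, sequence and repeat annotation came from GRCm38. The list of chromosomes with ribosomal RNA genes came from general knowledge, varies between strains and was not checked for this line. Windows and lists were chosen with earlier results of these data known. Procedures were tested on simulated data. Python 3.11.15, numpy 2.4.6, scipy 1.17.1, pandas 2.3.3 and matplotlib 3.10.9 were used.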

Additional observations from a re-analysis of the deposited data

Results flagged for a closer look

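Chromosome X was outside the autosomal comparison and was examined because it also carried a signal above the 3 read pairs that a count of 0 allows. Between its proximal end and autosomal proximal ends Hi-C held 482 read pairs in ESC, or 1.51 times the expected number (1.38 to 1.65), and 408 in NCC, or 1.41 times (1.28 to 1.55). Autosomes measured in the same way ran from 1.13 to 2.23 in ESC, with 2 of them below chromosome X, and from 1.06 to 1.84 in NCC, with 5 below. The NCC over ESC ratio of chromosome X was 0.932 (0.815 to 1.07, exact binomial p = 0.311), so that no difference was detectable at this depth.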

How the results depend on the processing

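No paired analysis was possible because the replicates were merged in each library, and for the same reason no replicate could be left out. Chromosomes were left out in turn instead. Of 519 recomputed values for 19 results (proximal with proximal and with distal ends in each library, the proximal ratios between cell types and the counts of pairs), 503 kept their direction and call, or stayed within 1.5 times for counts. The proximal value stayed between 1.63 and 1.96 in Hi-C of ESC and between 1.40 and 1.62 in Hi-C of NCC, and its NCC over ESC ratio between 0.727 and 0.862. The CTCF HiChIP ratio was 1.01 (exact binomial p = 0.84) as a share of all read pairs, 0.935 (exact p = 0.416) with a window up to 8 Mb and 0.938 (exact p = 0.225) without the first 1 Mb. It ran from 0.886 without chromosome 19 to 0.940 without chromosome 4. The 20 pairs lower in NCC by fold became 13 with expected numbers from pairs with the other chromosome only and 0 by the adjusted binomial test. They ran from 13 without chromosome 9 to 22 without chromosome 8. The paired t-test, on read pairs scaled to the inter-chromosomal totals and so on another measure, gave 103. The 0 pairs higher in NCC became 1 without the first 1 Mb. The CTCF HiChIP ratio of proximal with distal ends fell short of the threshold in 2 of 27 alternatives, the lowest at 1.06. The 6 summed values by ribosomal RNA grouping moved by more than their counting error in 24 of 54 alternatives. Pairs with none of the listed chromosomes had an ESC range of 1.96 to 2.62 and an NCC range of 1.56 to 2.08. The cause of these shifts was not tested. Alternatives for the ribosomal RNA grouping, for proximal with distal ends between cell types and for single pairs were added after seeing the data. Depth limits single pairs in HiChIP, where 2 and 5 pairs had 0 read pairs with CTCF in ESC and NCC, which allows up to 3.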
